A study of Homo sapiens with 12 samples.

Results

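The genes described here build and run the lysosome: 13 subunits of the proton pump that acidifies it, 13 luminal hydrolases, 5 membrane and lipid-handling proteins, and 6 genes of autophagy and its transcriptional control. They were chosen by gene symbol and not by a cut on the measured values, but with earlier results of these data known. All 37 symbols were found, out of 19951 gene entries. They were followed through mRNA and ribosome footprints of MonoMac6 (MM6), an established cell line from a human acute myeloid leukemia (AML) with monocytic features, after knockdown of IGF2BP2. IGF2BP2 is an RNA-binding protein that recognizes m6A-modified transcripts.

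The control cells carried a non-targeting short hairpin RNA (shNS), and the knockdown cells carried shBP2-1 or shBP2-2, which are different hairpins against IGF2BP2. All cells, controls included, were exposed to lentivirus for 48 h and then selected with puromycin for 2 days, so the changes are those of a pooled, selected population. One portion of cells gave total RNA for a stranded mRNA library. Another was held in cycloheximide for 15 min, which stalls ribosomes on their transcripts, and gave the RNA fragments that ribosomes protect (footprints). With 3 hairpins and 2 assays there were 6 groups of 2 replicates, or 12 libraries in all. Nothing in the labels says that replicates were separate cultures, so p-values measure the spread between these libraries, which may be technical.

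The V-ATPase is a rotary pump. Its cytosolic V1 sector hydrolyses ATP and turns a ring of proteolipid subunits in the membrane-embedded V0 sector, which carries protons into the lysosome. The low pH activates cathepsins and glycosidases, which digest material delivered by endocytosis and by autophagosomes. Autophagy receptors such as SQSTM1 tether cargo to membrane-bound proteins of the ATG8 family. The transcription factor TFEB binds E-box-like elements in promoters of many of these genes. Monocytes and macrophages are rich in lysosomal proteases, which they use to process antigens and engulfed particles.

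The values were read counts that the authors had normalized and rounded. Within each assay they were rescaled here by median-ratio factors, and the levels below are these rescaled values. The library totals ran from 22685066 to 24854593 for mRNA and from 456338 to 4884067 for footprints, lowest in shBP2-1, so footprint changes are relative to the middle of all genes. Changes are log2 fold changes ± standard error (SE) from limma, with 2 libraries per group and Benjamini-Hochberg adjustment over all genes tested. A gene was called at an adjusted p under 0.05. The SE of a mean over both hairpins comes from the spread within groups and leaves out the difference between hairpins. Translational efficiency (TE) is the footprint change minus the mRNA change. It is also shown as footprints per 100 mRNA, a ratio of the rescaled values of same-numbered libraries that can be compared between libraries but not between genes. MM6 identity markers were present, with 10 of 10 monocytic genes above 10 in every mRNA library. Other lists had 1 of 6 T and NK cell markers (NKG7, up to 2131; CD3D, CD3E and KLRD1 were at 0), 3 of 4 B cell markers (each at or under 33), 2 of 6 erythroid and megakaryocytic markers and 2 of 7 epithelial and fibroblast markers at 10 or more in any mRNA library. Their highest deposited values apart from NKG7 were 132 for KRT18 and 60 for KLF1.

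IGF2BP2 itself was reduced. Its rescaled mRNA was 2453 and 2343 in shNS, against 469 and 504 with shBP2-1 and 713 and 783 with shBP2-2, a change of -1.99 ± 0.09 (adjusted p = 3.51e-08). Its rescaled footprints were 192 and 196 in shNS, against 6.69 and 14.9 with shBP2-1 and 19.9 and 21.4 with shBP2-2, a relative change of -3.62 ± 0.27 (adjusted p = 8.13e-06). Neither measure overlapped between knockdown and control libraries.

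Library features bear on how the lysosomal values read. The shBP2-1 footprint replicates, the shallowest libraries, differed by no more than sampling noise over the 5807 genes with a summed value of at least 20 (chi-square of 0.961 per gene). In the 1921 genes with at least 100 they differed by more than sampling noise (1.25 per gene). They were kept as 2 replicates, and counting them as 1 gave 10 in place of 12 members called in footprints. In mRNA, the replicates of the hairpins varied in opposite directions over the 37 members. Where shBP2-1 replicate 2 exceeded replicate 1, shBP2-2 replicate 1 tended to exceed replicate 2 (r of the replicate differences -0.85 over the members and -0.36 over 12196 genes, a description across genes that share libraries). The members that shBP2-2 raised or lowered against shNS also followed the shBP2-1 replicate difference (r = -0.72, and -0.49 over all genes). The part of this library pattern in the mRNA results was not tested.

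Among the mRNAs of the 37 members, 7 rose and 13 fell in the mean of both hairpins. Over all 12196 genes tested 59% were called, 28.9% higher and 30.1% lower, and the members' share of 54.1% was close to that background. The median change was -0.12 over the members and -0.01 over all genes. In relative footprints 11 of 36 members tested rose and 1 fell. That is a share of 33.3% against 10.2% of 8662 genes, or 5.55% higher and 4.64% lower. In TE 15 members rose and 6 fell, a share of 58.3% against 32.7% of 8580 genes, or 15.4% higher and 17.4% lower. With libraries scaled to equal totals the splits were 7 higher and 16 lower in mRNA, 10 and 3 in footprints and 15 and 6 in TE. The splits of all genes were then 2971 higher and 4182 lower in mRNA, 362 and 511 in footprints and 1116 and 1400 in TE. The rises in footprints and TE include TFEB, which passed the minimum only because its knockdown libraries were high. Without TFEB 10 rose and 1 fell of 35 in footprints (31.4%) and 14 rose and 6 fell in TE (57.1%). Among genes with a mean of at least 50, where calls are easier, 14 of 34 members were called in footprints against 18.2% of genes, and 20 of 34 in TE against 52.5%. The TE share is then close to that of other abundant genes. All such values are per bulk sample, in which fewer cells of a type and less RNA per cell cannot be told apart.

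The counts depended on single libraries, and the share of all genes called also fell in each setting given here. In the fit over all 12 libraries that share was 3.38% in footprints, beside 10.2% in the main fit. The mRNA count of 20 was 6 and 9 when shNS replicate 1 or 2 was left out. The footprint count of 12 was 4 when either shBP2-1 replicate was left out, and a fit that shares its spread over all 12 libraries also left 4 (CTSD, CTSL, SQSTM1 and TFEB). The TE count of 21 was 11 without shNS footprint replicate 2.

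In the V-ATPase, 3 of 4 mRNAs of the V0 sector fell and 1 rose, while 4 of 8 mRNAs of the V1 sector rose and 2 fell. The median changes were -0.41 and 0.25, and the difference between sectors was not tested. With 28.9% of all genes higher and 30.1% lower in mRNA, such counts are no sign of a change particular to the pump. The 4 V1 rises were ATP6V1A, ATP6V1B2, ATP6V1C1 and ATP6V1D. ATP6V1A, the catalytic subunit that hydrolyses ATP, had mRNA of 1762 and 1916 in shNS, against 2811 and 3232 with shBP2-1 and 2524 and 2312 with shBP2-2, and all 4 knockdown libraries were above both controls. Its change was 0.55 ± 0.09 (adjusted p = 0.000538). ATP6V1B2, the other subunit of the head, was at 4407 and 4641 in shNS, against 5052 and 6216 with shBP2-1 and 6284 and 5485 with shBP2-2, a change of 0.34 ± 0.10 (adjusted p = 0.0104) with no overlap.

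ATP6V1C1, which links the head to the peripheral stalks and in yeast leaves the pump when it disassembles, had the largest mRNA rise of the 37 members. It was at 2329.8 and 2575 in shNS, against 4156 and 5099 with shBP2-1 and 3919 and 3505 with shBP2-2, a change of 0.75 ± 0.10 (adjusted p = 0.000208), with every knockdown library above both controls. ATP6V1D, the central rotor stalk, was at 647 and 741 in shNS, against 1037 and 1278 with shBP2-1 and 1051 and 945 with shBP2-2 and changed by 0.63 ± 0.11 (adjusted p = 0.000724), again with no overlap. In these 4 genes shBP2-1 replicate 2 was above replicate 1 and shBP2-2 replicate 1 above replicate 2, the library pattern given above. ATP6V1A, ATP6V1C1 and ATP6V1D kept their calls in all 14 alternatives, and ATP6V1B2 lost its call without shNS replicate 1 (0.11). Reads of ATP6V1D may include some of the overlapping gene GPHN, since no source used here says whether strand was used in counting.

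The 5 V-ATPase mRNAs that fell were ATP6V0B, ATP6V0C, ATP6V0D1, ATP6V1F and ATP6V1G1. ATP6V0C, the main proteolipid of the ring, was at 3543 and 3243 in shNS, against 2891 and 2433 with shBP2-1 and 2137 and 2763 with shBP2-2, a change of -0.42 ± 0.11 (adjusted p = 0.00645). ATP6V0B, another ring proteolipid, was at 3384 and 3302 in shNS, against 2751 and 2371 with shBP2-1 and 2242 and 2689.9 with shBP2-2 and changed by -0.42 ± 0.10 (adjusted p = 0.00325). In both genes all 4 knockdown libraries were below the controls. ATP6V0D1, which couples the stalk to the ring, was at 1119 and 1012 in shNS, against 1155 and 895 with shBP2-1 and 597 and 694 with shBP2-2, so shBP2-1 spanned the controls and shBP2-2 lay below them (mean change -0.40 ± 0.11, adjusted p = 0.0102). ATP6V1F, a rotor subunit, was at 3252 and 3427 in shNS, against 3164 and 2574 with shBP2-1 and 2123 and 2487 with shBP2-2 and changed by -0.38 ± 0.10 (adjusted p = 0.00656), with no overlap. ATP6V1G1 of the peripheral stalk fell slightly (-0.21 ± 0.09, adjusted p = 0.0467), and ATP6V0E1, a small V0 subunit, rose (0.31 ± 0.10, adjusted p = 0.0133). ATP6V1E1 (0.16 ± 0.09), ATP6V1H (0.08 ± 0.10) and the accessory subunit ATP6AP1 (-0.24 ± 0.10) were not called.

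Most of these smaller mRNA changes rested on the control libraries. Without shNS replicate 1 the adjusted p was 0.051 for ATP6V0B, 0.092 for ATP6V0C, 0.13 for ATP6V0D1 and 0.11 for ATP6V0E1. The ATP6V0E1 call was also lost without shNS replicate 2 (0.082), that of ATP6V1F without shNS replicate 2 (0.077), and that of ATP6V1G1 without shBP2-2 replicate 1 (0.19) or 2 (0.066) or shNS replicate 1 (0.29) or 2 (0.20).

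**Figure D1:**
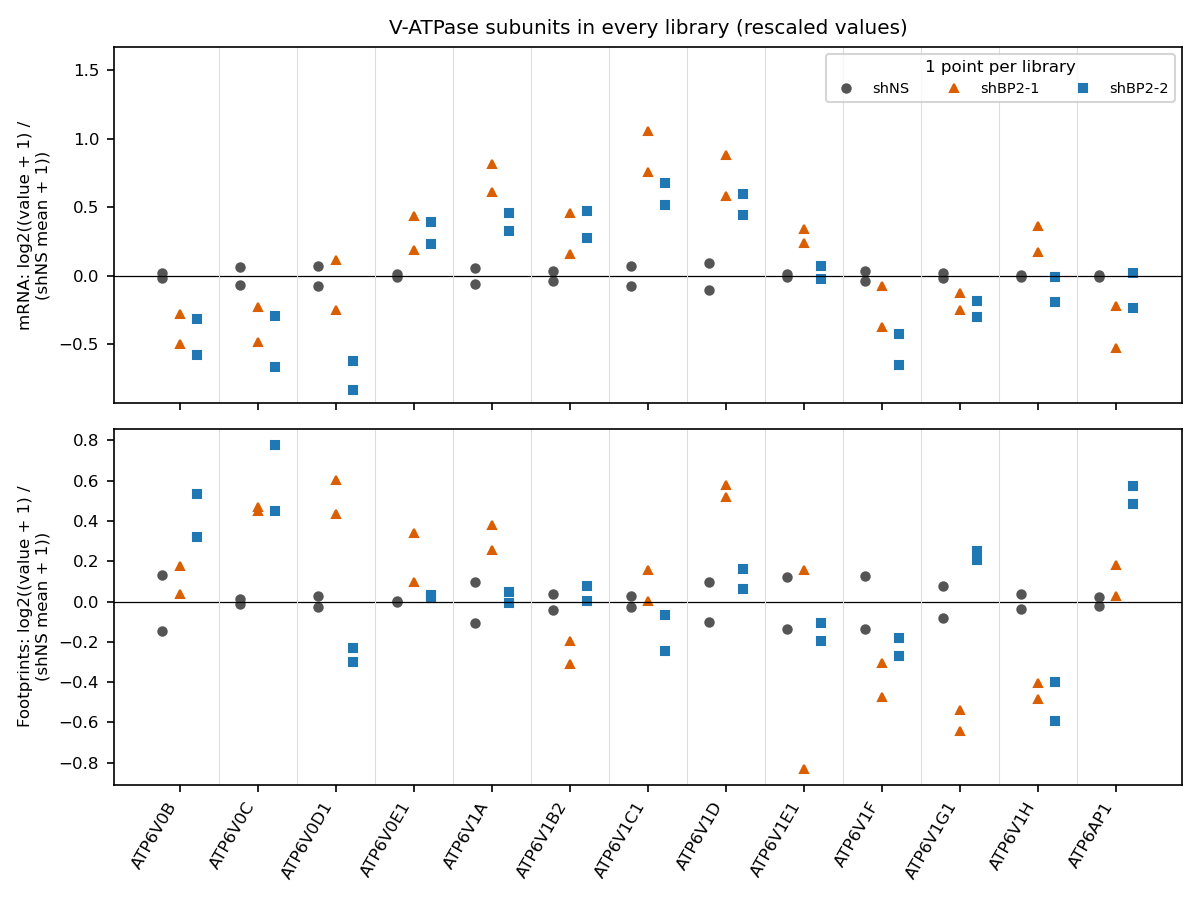
V-ATPase subunits in each library, as log2 of the rescaled value plus 1 over the shNS mean plus 1, for mRNA (top) and footprints (bottom), with 1 point per library. The mRNA of ATP6V1A, ATP6V1B2, ATP6V1C1 and ATP6V1D lies above the controls in all knockdown libraries and that of ATP6V0B and ATP6V0C below, while footprints of ATP6V0C lie above.

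The V1 mRNA rises had no called rise in footprints beside them. Of the 8 V1 subunits 1 fell in relative footprints and the other 7 were not called. Over all genes 5.55% rose and 4.64% fell. A missing call is not an absence of change. Footprints of ATP6V1D were 69.2 and 60.2 in shNS, against 97.0 and 93.1 with shBP2-1 and 72.6 and 67.6 with shBP2-2. They lay above both controls in shBP2-1 and overlapped them in shBP2-2. ATP6V1B2 footprints were at 84.0% of the shNS mean with shBP2-1 and 103% with shBP2-2. ATP6V1A footprints were 395 and 456 in shNS, against 508 and 555 with shBP2-1 and 423 and 439.8 with shBP2-2, a relative change of 0.18 ± 0.08 (adjusted p = 0.179). ATP6V1C1 footprints were 139 and 134 in shNS, against 137 and 153 with shBP2-1 and 115 and 131 with shBP2-2, overlapping the controls (-0.02 ± 0.11, adjusted p = 0.921). ATP6V1H, a regulatory subunit that in yeast restrains ATP hydrolysis in the detached V1 sector, was the subunit that fell. It was at 173 and 183 in shNS, against 127 and 134 with shBP2-1 and 117 and 134 with shBP2-2, with all 4 knockdown libraries below the controls (-0.45 ± 0.11, adjusted p = 0.0240).

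ATP6V0C had more relative footprints despite less mRNA. Its footprints were 167 and 170.3 in shNS, against 231 and 235 with shBP2-1 and 290.5 and 231 with shBP2-2, above both controls in all knockdown libraries (0.53 ± 0.11, adjusted p = 0.00977). ATP6AP1, an accessory subunit needed to assemble V0, was at 430.1 and 417 in shNS, against 432 and 480.2 with shBP2-1 and 632 and 594 with shBP2-2, also with no overlap but close to the controls in shBP2-1 (0.32 ± 0.07, adjusted p = 0.0147). ATP6V1H lost its call without shBP2-1 replicate 1 (0.18) or 2 (0.13) or shBP2-2 replicate 1 (0.052), ATP6V0C without shBP2-1 replicate 1 (0.068) or 2 (0.063), and ATP6AP1 without shBP2-1 replicate 1 (0.075) or 2 (0.16).

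In TE over both hairpins, 3 of 4 V0 subunits rose and 4 of 8 V1 subunits fell, and the rest were not called. The medians were 0.60 and -0.38 beside -0.03 over all genes. Over all genes 15.4% rose and 17.4% fell in TE. Among genes with a mean of at least 50, 52.5% were called in either direction, beside 61.5% of the 13 V-ATPase members. With shBP2-1 alone 0 of the 13 were called in TE (13.8% of all genes). With shBP2-2 alone 4 rose and 1 fell (26.4% of all genes called). Footprints per 100 mRNA of ATP6V0C were 4.73 and 5.25 in shNS, against 7.98 and 9.64 with shBP2-1 and 13.6 and 8.37 with shBP2-2, a TE change of 0.95 ± 0.20 (adjusted p = 0.00322). Those of ATP6V0B were 12.3 and 10.3 in shNS, against 14.1 and 18.1 with shBP2-1 and 24.4 and 17.5 with shBP2-2, a change of 0.68 ± 0.16 (adjusted p = 0.00569). For both genes every knockdown ratio was above both control ratios. ATP6V0D1 (0.52 ± 0.17, adjusted p = 0.0284) and ATP6AP1 (0.56 ± 0.15, adjusted p = 0.0117) rose as well. Their ratios were 21.6 and 23.0 in shNS, against 27.8 and 40.4 with shBP2-1 and 33.8 and 27.7 with shBP2-2 for ATP6V0D1, and 9.20 and 9.03 in shNS, against 10.8 and 14.9 with shBP2-1 and 16 and 12.6 with shBP2-2 for ATP6AP1, above the controls in all knockdown libraries.

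Footprints per 100 mRNA of ATP6V1C1 were 5.98 and 5.21 in shNS, against 3.30 and 2.99 with shBP2-1 and 2.94 and 3.72 with shBP2-2, a TE change of -0.78 ± 0.20 (adjusted p = 0.00873). Those of ATP6V1A were 22.4 and 23.8 in shNS, against 18.1 and 17.2 with shBP2-1 and 16.7 and 19.0 with shBP2-2 (-0.38 ± 0.14, adjusted p = 0.0424), and those of ATP6V1B2 were 9.78 and 9.82 in shNS, against 7.08 and 6.23 with shBP2-1 and 7.06 and 8.54 with shBP2-2 (-0.44 ± 0.15, adjusted p = 0.0339). The ratios of ATP6V1H were 18.5 and 19.8 in shNS, against 12.1 and 11.2 with shBP2-1 and 12.7 and 16.5 with shBP2-2 (-0.54 ± 0.17, adjusted p = 0.0251). In these 4 genes every knockdown ratio was below both control ratios. For ATP6V1A, ATP6V1B2 and ATP6V1C1 the fall in TE goes with a rise in mRNA and no called footprint change.

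The TE calls of ATP6V0B, ATP6V0C, ATP6AP1 and ATP6V1C1 in the mean of both hairpins held in all 20 alternatives. That of ATP6V0D1 was lost without shBP2-1 footprint replicate 2 (0.066), shBP2-2 footprint replicate 1 (0.051), shNS footprint replicate 1 (0.062) or 2 (0.089) or shNS mRNA replicate 1 (0.11). ATP6V1A lost its call without shBP2-1 footprint replicate 1 (0.10) or 2 (0.059), shBP2-2 footprint replicate 1 (0.070) or 2 (0.057), shNS footprint replicate 2 (0.19), shBP2-2 mRNA replicate 1 (0.064) or shNS mRNA replicate 1 (0.14). ATP6V1B2 lost its call without shBP2-1 footprint replicate 1 (0.073), shBP2-2 footprint replicate 1 (0.053), shNS footprint replicate 1 (0.062) or 2 (0.11) or shNS mRNA replicate 1 (0.088), and ATP6V1H without shBP2-1 footprint replicate 1 (0.057), shNS footprint replicate 2 (0.080) or shNS mRNA replicate 1 (0.057) or 2 (0.054).

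Among the hydrolase mRNAs, 1 of 13 rose and 4 fell, with a median of -0.16, a smaller share than the 59% of all genes called. CTSC, a dipeptidyl peptidase that activates granule proteases in myeloid cells, was at 10466 and 10608 in shNS, against 12201 and 13854 with shBP2-1 and 14036 and 12825 with shBP2-2, with all knockdown libraries above the controls (0.33 ± 0.09, adjusted p = 0.00666). CTSZ, a carboxypeptidase also called cathepsin X, fell (-0.55 ± 0.09, adjusted p = 0.000418), but by hairpin: it was at 7981 and 8202 in shNS, against 8203 and 7376 with shBP2-1 and 3746 and 4148 with shBP2-2. The shBP2-1 libraries lay around the controls and both shBP2-2 libraries far below them.

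3 of 5 glycosidases fell. HEXA, the alpha subunit of beta-hexosaminidase A that degrades the ganglioside GM2, was at 4031 and 4111 in shNS, against 3701 and 3587 with shBP2-1 and 2916 and 2990.0 with shBP2-2, with knockdown libraries below the controls (-0.31 ± 0.08, adjusted p = 0.00531). GUSB, which degrades glycosaminoglycans, was at 3416 and 3493 in shNS, against 2936 and 2712 with shBP2-1 and 2717 and 2990.0 with shBP2-2 (-0.28 ± 0.09, adjusted p = 0.0121), also with no overlap. GAA, which degrades lysosomal glycogen, was at 915 and 957 in shNS, against 742 and 594 with shBP2-1 and 810.1 and 960.2 with shBP2-2 (-0.29 ± 0.11, adjusted p = 0.0371), and shBP2-2 replicate 2 was at the level of the controls. GLA (0.07 ± 0.10) and GLB1 (-0.19 ± 0.08) were not called, and neither were CTSA (-0.16 ± 0.09), CTSB (-0.22 ± 0.09), CTSD (-0.01 ± 0.10), CTSH (-0.15 ± 0.10), CTSL (0.21 ± 0.09) and CTSS (-0.08 ± 0.08). The CTSZ call held in all 14 alternatives. CTSC was lost without shNS replicate 1 (0.086) or 2 (0.062), HEXA without shNS replicate 1 (0.076) or 2 (0.090), GUSB without shBP2-2 replicate 1 (0.066) or shNS replicate 1 (0.11) or 2 (0.13), and GAA without shBP2-1 replicate 2 (0.054), shBP2-2 replicate 1 (0.12) or shNS replicate 1 (0.13) or 2 (0.21).

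In relative footprints 4 of 8 cathepsins and 1 of 5 glycosidases rose, and the other 8 hydrolases were not called, beside 5.55% of all genes higher and 4.64% lower. Among genes with a mean of at least 50, 18.2% were called in either direction. CTSD, the major aspartic protease of the lysosome (chromosome 11, 1752755 to 1763927, GRCh38), had footprints of 802 and 716 in shNS, against 1077 and 1102 with shBP2-1 and 1330.0 and 1157 with shBP2-2, all 4 knockdown libraries above both controls (0.61 ± 0.07, adjusted p = 0.000253). Its mRNA was 8038 and 7927 in shNS, against 8834 and 7048 with shBP2-1 and 7405 and 8640.5 with shBP2-2 and overlapped between groups (-0.01 ± 0.10, adjusted p = 0.957). The TE of CTSD rose (0.62 ± 0.14, adjusted p = 0.00488), with ratios of 9.97 and 9.03 in shNS, against 12.2 and 15.6 with shBP2-1 and 18.0 and 13.4 with shBP2-2. Both CTSD calls, in the mean of both hairpins, held in every alternative tried, 14 for footprints and 20 for TE. With single hairpins CTSD footprints were called with both, and its TE with shBP2-2 only.

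CTSL, a cysteine endopeptidase of broad specificity, had footprints of 196 and 226 in shNS, against 298 and 279 with shBP2-1 and 315 and 288 with shBP2-2 (0.49 ± 0.10, adjusted p = 0.00841), and CTSB, an abundant cysteine protease, had 891 and 926 in shNS, against 1067 and 1269 with shBP2-1 and 1106 and 1122 with shBP2-2 (0.33 ± 0.06, adjusted p = 0.00349). Neither gene overlapped between knockdown and control. CTSA, a serine carboxypeptidase that protects beta-galactosidase, was at 419.7 and 370.4 in shNS, against 656 and 659 with shBP2-1 and 406 and 399 with shBP2-2 (0.38 ± 0.07, adjusted p = 0.00752), raised in shBP2-1 and within the control range in shBP2-2. HEXA footprints rose slightly (0.21 ± 0.06, adjusted p = 0.0460), a call lost in 11 of 14 alternatives, among them those without shBP2-1 replicate 1 (0.27) or 2 (0.19), shBP2-2 replicate 1 (0.054) or 2 (0.14) or shNS replicate 1 (0.074). Without shBP2-1 replicate 1 or 2 the CTSA call was lost (0.058 and 0.051), that of CTSL without shBP2-1 replicate 1 (0.081), and that of CTSB without shBP2-1 replicate 2 (0.070). Sharing the spread over all 12 libraries ended the calls of CTSA (0.073), CTSB (0.076) and HEXA (0.16). The CTSA reads may include the overlapping gene PLTP.

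In TE, 7 of 13 hydrolases rose and 1 fell, beside 32.7% of all genes called and 52.5% of those with a mean of at least 50. GAA showed the largest rise, from ratios of 6.72 and 4.62 in shNS, against 10.8 and 11.3 with shBP2-1 and 10.2 and 8.79 with shBP2-2 (0.88 ± 0.25, adjusted p = 0.0146), and CTSB gave 8.78 and 9.36 in shNS, against 11.1 and 15.9 with shBP2-1 and 13.8 and 12.4 with shBP2-2 (0.54 ± 0.12, adjusted p = 0.00442). HEXA ratios were 16.3 and 16.8 in shNS, against 23.7 and 23.7 with shBP2-1 and 22.9 and 24.4 with shBP2-2 (0.52 ± 0.10, adjusted p = 0.00229), with all knockdown ratios above both control ratios. CTSA (0.54 ± 0.14, adjusted p = 0.00829; ratios of 7.47 and 6.93 in shNS, against 9.43 and 11.1 with shBP2-1 and 11.6 and 9.93 with shBP2-2), GUSB (0.46 ± 0.13) and CTSZ (0.36 ± 0.12) also rose. CTSC fell (-0.27 ± 0.10, adjusted p = 0.0394) with ratios of 17.6 and 16.9 in shNS, against 14.7 and 13.5 with shBP2-1 and 13.8 and 15.3 with shBP2-2: its mRNA rose while its footprints did not pass the test (0.05 ± 0.04). For GAA, HEXA, GUSB and CTSZ the mRNA fell, so part of the TE rise is the lower mRNA.

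CTSB, CTSD and HEXA kept their TE calls in all 20 alternatives. CTSA lost its call without shNS footprint replicate 2 (0.056), GAA without shNS footprint replicate 2 (0.090), and GUSB without shBP2-1 footprint replicate 1 (0.065) or shNS footprint replicate 2 (0.055). CTSZ was lost without shBP2-1 footprint replicate 1 (0.068) or 2 (0.075), shBP2-2 footprint replicate 1 (0.078), shNS footprint replicate 1 (0.12) or 2 (0.064), shBP2-2 mRNA replicate 1 (0.059) or shNS mRNA replicate 1 (0.070) or 2 (0.086). The small CTSC change was lost without shBP2-1 footprint replicate 1 (0.10) or 2 (0.076), shBP2-2 footprint replicate 1 (0.070) or 2 (0.066), shNS footprint replicate 1 (0.12) or 2 (0.082), shBP2-2 mRNA replicate 1 (0.061) or shNS mRNA replicate 1 (0.10) or 2 (0.074).

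**Figure D2:**
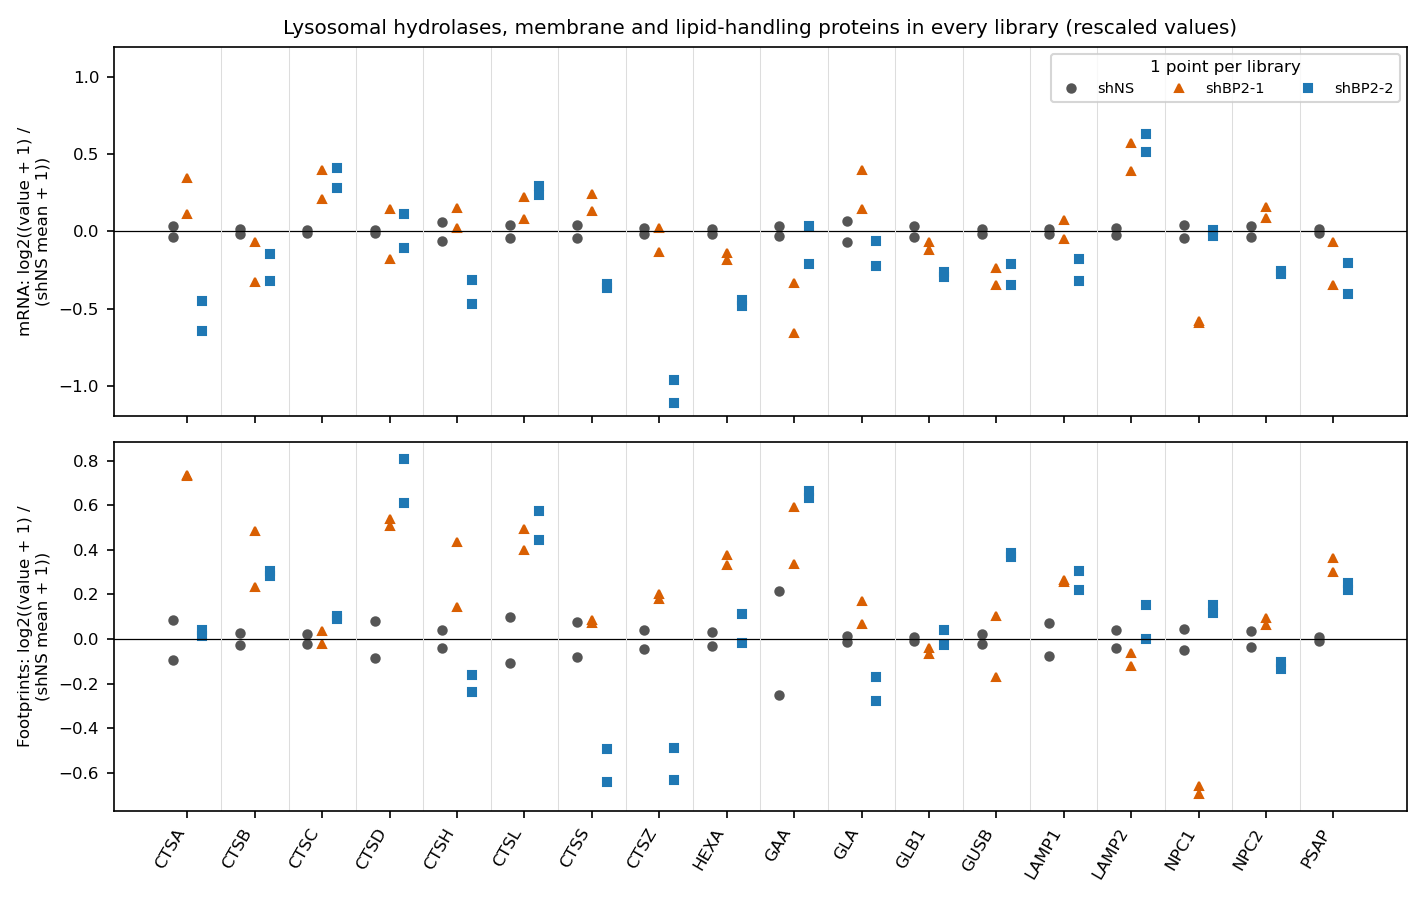
Hydrolases, membrane and lipid-handling proteins in each library, as log2 of the rescaled value plus 1 over the shNS mean plus 1, for mRNA (top) and footprints (bottom), with 1 point per library. CTSD and CTSL footprints lie above the controls with both hairpins, while CTSZ, CTSS and NPC1 separate the hairpins in both assays.

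Of the membrane and lipid-handling proteins, the 2 major lysosome-associated membrane glycoproteins were called in opposite directions in TE. LAMP2, which has an isoform acting in chaperone-mediated autophagy, had mRNA of 11021 and 11342 in shNS, against 14652 and 16663 with shBP2-1 and 17286 and 15997 with shBP2-2, above the controls in all knockdown libraries (0.53 ± 0.09, adjusted p = 0.000513). Its footprints were 1277 and 1209.8 in shNS, against 1191 and 1143 with shBP2-1 and 1242 and 1384 with shBP2-2 and overlapped between groups (-0.00 ± 0.06, adjusted p = 0.990). Its TE fell (-0.53 ± 0.11, adjusted p = 0.00272), from ratios of 11.6 and 10.7 in shNS, against 8.13 and 6.86 with shBP2-1 and 7.19 and 8.65 with shBP2-2. The mRNA and TE calls of LAMP2 held in every alternative.

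LAMP1 (chromosome 13, 113297239 to 113323672, GRCh38) had mRNA of 13534 and 13199 in shNS, against 14060.2 and 12939.9 with shBP2-1 and 10710.3 and 11794 with shBP2-2, not called in the mean (-0.12 ± 0.08, adjusted p = 0.242). Its footprints were 1376 and 1244 in shNS, against 1562 and 1575 with shBP2-1 and 1619 and 1525 with shBP2-2, above both controls in all knockdown libraries (0.26 ± 0.06, adjusted p = 0.0128). The TE of LAMP1 rose (0.38 ± 0.10, adjusted p = 0.0103), with ratios of 10.2 and 9.43 in shNS, against 11.1 and 12.2 with shBP2-1 and 15.1 and 12.9 with shBP2-2. The footprint call was lost without shBP2-1 replicate 1 (0.086) or 2 (0.087) and in the fit over all 12 libraries (0.081), and the TE call without shNS footprint replicate 2 (0.070).

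PSAP, the precursor of the saposins that present sphingolipids to hydrolases, had less mRNA and more relative footprints. Its mRNA was 7136 and 7263 in shNS, against 6872 and 5662 with shBP2-1 and 5434 and 6243 with shBP2-2, below the controls (-0.26 ± 0.10, adjusted p = 0.0369), and its footprints were 1183 and 1199 in shNS, against 1468 and 1534 with shBP2-1 and 1416 and 1387 with shBP2-2, above them (0.28 ± 0.05, adjusted p = 0.00210). Its TE rose, from ratios of 16.6 and 16.5 in shNS, against 21.4 and 27.1 with shBP2-1 and 26.1 and 22.2 with shBP2-2 (0.54 ± 0.12, adjusted p = 0.00376). The TE call held in all 20 alternatives. The mRNA call was lost without shBP2-2 replicate 1 (0.13) or shNS replicate 1 (0.17) or 2 (0.20), and the footprint call in the fit over all 12 libraries (0.095). NPC1, which exports cholesterol from the lysosome, fell in mRNA (-0.30 ± 0.08, adjusted p = 0.00769), a call lost without shNS replicate 1 (0.16) or 2 (0.056), and its hairpins differed as described below. NPC2, its luminal partner, was called in none of the 3 measures (mRNA -0.07 ± 0.08, footprints -0.01 ± 0.08, TE 0.06 ± 0.12).

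Among the autophagy genes, SQSTM1 footprints rose while its mRNA did not. SQSTM1 (p62; chromosome 5, 179806393 to 179838078, GRCh38) is a receptor that binds ubiquitinated cargo and is itself degraded by autophagy. Its mRNA was 2987 and 3037 in shNS, against 3300.5 and 2762 with shBP2-1 and 2499.8 and 2921 with shBP2-2, with overlapping groups (-0.08 ± 0.10, adjusted p = 0.516). Its footprints were 198 and 221 in shNS, against 335 and 328 with shBP2-1 and 322 and 296 with shBP2-2, so all knockdown libraries lay above both controls (0.61 ± 0.09, adjusted p = 0.00121). The ratios were 6.63 and 7.29 in shNS, against 10.1 and 11.9 with shBP2-1 and 12.9 and 10.1 with shBP2-2, a TE change of 0.69 ± 0.16 (adjusted p = 0.00541). Both calls, in the mean of both hairpins, held in every alternative. The relative footprint change was 0.67 ± 0.13 with shBP2-1 and 0.56 ± 0.09 with shBP2-2, both called. The TE of SQSTM1 was called with shBP2-2 but not with shBP2-1. The annotation places MGAT4B and MRNIP over SQSTM1, so reads of these genes could be counted with it.

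The related receptor NBR1 was called in none of the measures (mRNA 0.08 ± 0.09, footprints -0.28 ± 0.21, TE -0.36 ± 0.23), and the difference between NBR1 and SQSTM1 was not tested. Of the ATG8 proteins, GABARAP mRNA fell (-0.29 ± 0.08, adjusted p = 0.00902), with values of 1582 and 1625 in shNS, against 1562 and 1514 with shBP2-1 and 1119.7 and 1104 with shBP2-2, lowest in shBP2-2. That call was lost without shNS replicate 1 (0.094) or 2 (0.13), and GABARAP overlaps the gene PHF23. GABARAP footprints (0.01 ± 0.12) and GABARAPL2 in mRNA (0.10 ± 0.10) and footprints (-0.15 ± 0.15) were not called.

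MAP1LC3B (LC3B), the ATG8 protein most used to mark autophagosomes, could be followed only in mRNA. Its mRNA was 621 and 619 in shNS, against 531 and 617 with shBP2-1 and 758 and 660.1 with shBP2-2 (0.04 ± 0.10, adjusted p = 0.779). Its deposited footprint values were 18 and 38 in shNS, against 0 and 0 with shBP2-1 and 25 and 12 with shBP2-2, under the minimum for testing. The deposited footprints of the near-identical copy MAP1LC3B2 were 129 and 119 in shNS, against 9 and 13 with shBP2-1 and 30 and 70 with shBP2-2, with at most 3 in any mRNA library, so footprints of the 2 genes cannot be told apart. Their rescaled sum was 49.1 and 58.4 in shNS, against 30.1 and 48.4 with shBP2-1 and 54.7 and 53.3 with shBP2-2. The shBP2-1 sums, from 9 and 13 deposited footprints, lay below both controls, and the shBP2-2 sums lay between the controls.

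TFEB (chromosome 6, 41683978 to 41736223, GRCh38), the regulator of lysosomal genes, had few reads. Its mRNA was 246 and 222 in shNS, against 227 and 181 with shBP2-1 and 163 and 148 with shBP2-2, lowest in shBP2-2 and overlapping the controls in shBP2-1 (-0.39 ± 0.14, adjusted p = 0.0236). Its deposited footprints were 13 and 13 in shNS, against 5 and 5 with shBP2-1 and 11 and 14 with shBP2-2, which rescale to 4.34 and 4.83 in shNS, against 16.7 and 18.6 with shBP2-1 and 10.9 and 9.09 with shBP2-2. Relative footprints were thus above the controls in all knockdown libraries, with a fitted log2 change of 1.57 ± 0.36 in footprints and 1.96 ± 0.38 in TE and ratios of 1.76 and 2.18 in shNS, against 7.36 and 10.3 with shBP2-1 and 6.69 and 6.14 with shBP2-2. These are descriptions with no test, since TFEB passed the minimum only through the knockdown libraries and the shNS values are low. The mRNA call was lost without shBP2-2 replicate 2 (0.052) or shNS replicate 1 (0.21) or 2 (0.058).

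**Figure D3:**
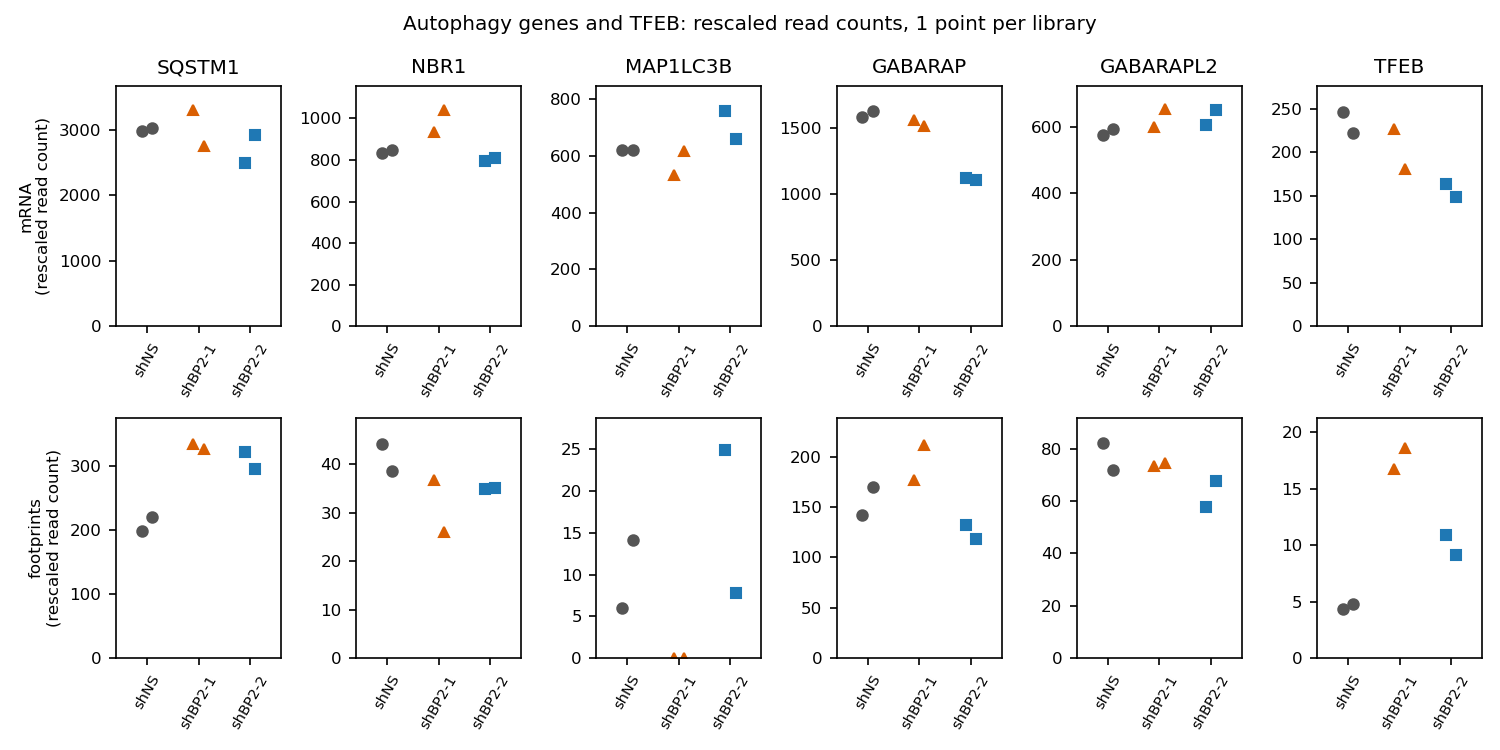
Rescaled read counts of the autophagy genes and TFEB in each library, for mRNA (top) and footprints (bottom), with 1 point per library and a linear axis from 0. SQSTM1 footprints lie at 198 and 221 in shNS and between 296 and 335 in the knockdown libraries while SQSTM1 mRNA overlaps, and MAP1LC3B footprints are at 0 in shBP2-1.

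Because TFEB and its relatives bind the element GTCACGTG, the promoters of the members were searched for it. Of the 37 members 27 were searched, through 35 promoter entries of the RefSeq table (GRCh38.p14, 250 bases before to 50 after each start). The search for GTCACGTG on either strand matched 7 of the 35, or 20% of the members' promoters, against 2.4% of 35116 promoters in the table. The shorter core CACGTG, which every such match contains, was in 20% and 7.26%. A match is a description of sequence and not a site of binding. TFEB is already known to bind such elements in promoters of many of these genes, so the difference in shares is no independent result. Some members count with more than 1 promoter and others were not searched. The shares over the table count all its promoters, so the sets compared are not alike. The genes were the V-ATPase subunits ATP6V0B, ATP6V0D1 and ATP6V1G1, the hydrolases CTSA, CTSD and GAA, and LAMP1. They are shown because this is the element known for TFEB, itself a member. The windows, each on the strand of its gene with 16 bases on either side of the matches, lie at chr1:43974885-43974924 (plus strand) for ATP6V0B, chr16:67481195-67481234 (minus) for ATP6V0D1, chr9:114587693-114587734 (plus) for ATP6V1G1, chr20:45891275-45891333 (plus) for CTSA, chr11:1763951-1763990 (minus) for CTSD, chr17:80101487-80101573 (plus) for GAA and chr13:113297029-113297261 (plus) for LAMP1. Capitals mark the matches, read as CACGTGAC where they lie on the opposite strand.
ATP6V0B: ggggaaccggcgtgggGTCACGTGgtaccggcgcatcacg
ATP6V0D1: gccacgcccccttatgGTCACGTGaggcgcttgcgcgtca
ATP6V1G1: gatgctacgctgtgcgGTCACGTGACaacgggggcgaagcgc
CTSA: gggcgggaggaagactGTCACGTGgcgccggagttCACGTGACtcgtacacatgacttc
CTSD: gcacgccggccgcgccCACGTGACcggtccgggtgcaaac
GAA: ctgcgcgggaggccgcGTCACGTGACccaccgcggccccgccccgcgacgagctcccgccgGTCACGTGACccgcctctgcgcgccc
LAMP1: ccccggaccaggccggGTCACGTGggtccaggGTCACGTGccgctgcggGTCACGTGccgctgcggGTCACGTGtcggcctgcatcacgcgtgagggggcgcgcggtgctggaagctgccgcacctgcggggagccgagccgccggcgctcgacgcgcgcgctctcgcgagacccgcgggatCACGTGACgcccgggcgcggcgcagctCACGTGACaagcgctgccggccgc

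In ATP6V1G1 and GAA matches on both strands overlap, in GAA at 2 places. LAMP1 holds 6 matches of GTCACGTG on either strand, 4 of them in a tandem array. The first matches of ATP6V0B, ATP6V0D1 and ATP6V1G1 begin 59, 61 and 60 bases before the annotated start, and those of CTSD and CTSA 47 and 44 bases before it. In mRNA ATP6V0B, ATP6V0D1, ATP6V1G1 and GAA fell and CTSA, CTSD and LAMP1 were not called, with the values given above. In TE 6 of the 7, all but ATP6V1G1, were among the 15 of 36 members that rose. Over all genes 15.4% rose in TE, and 52.5% of those with a mean of at least 50 were called in either direction. Members searched without a match rose too, among them ATP6V0C, ATP6AP1 and SQSTM1, and no link between the element and either measure was tested.

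Across the 36 members measured in both assays, mRNA and footprint changes showed little relation. The correlation across members was -0.18, beside -0.04 over 8580 genes, a description across genes that share libraries. The footprint change exceeded the mRNA change in 23 of 36. The patterns below are those of the mean of both hairpins. 6 members, namely ATP6AP1, CTSA, CTSB, CTSD, LAMP1 and SQSTM1, had higher footprints and TE with no called mRNA change. That was a pattern of 1.42% of the 8569 gene symbols tested in all 3 measures, not matched for abundance. With single hairpins, mRNA was called lower for ATP6AP1 with shBP2-1 and for CTSA and LAMP1 with shBP2-2. CTSB mRNA lay below both controls in all knockdown libraries without a call. ATP6V0C, HEXA and PSAP, 3 members beside TFEB, had lower mRNA with higher footprints and TE, a pattern of 2.28% of symbols. 5 members had lower mRNA and higher TE with footprints not called (10.2% of symbols), and 5 had higher mRNA and lower TE with footprints not called (13.2%), shares near those of all genes. The members were not tested as a group.

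**Figure D4:**
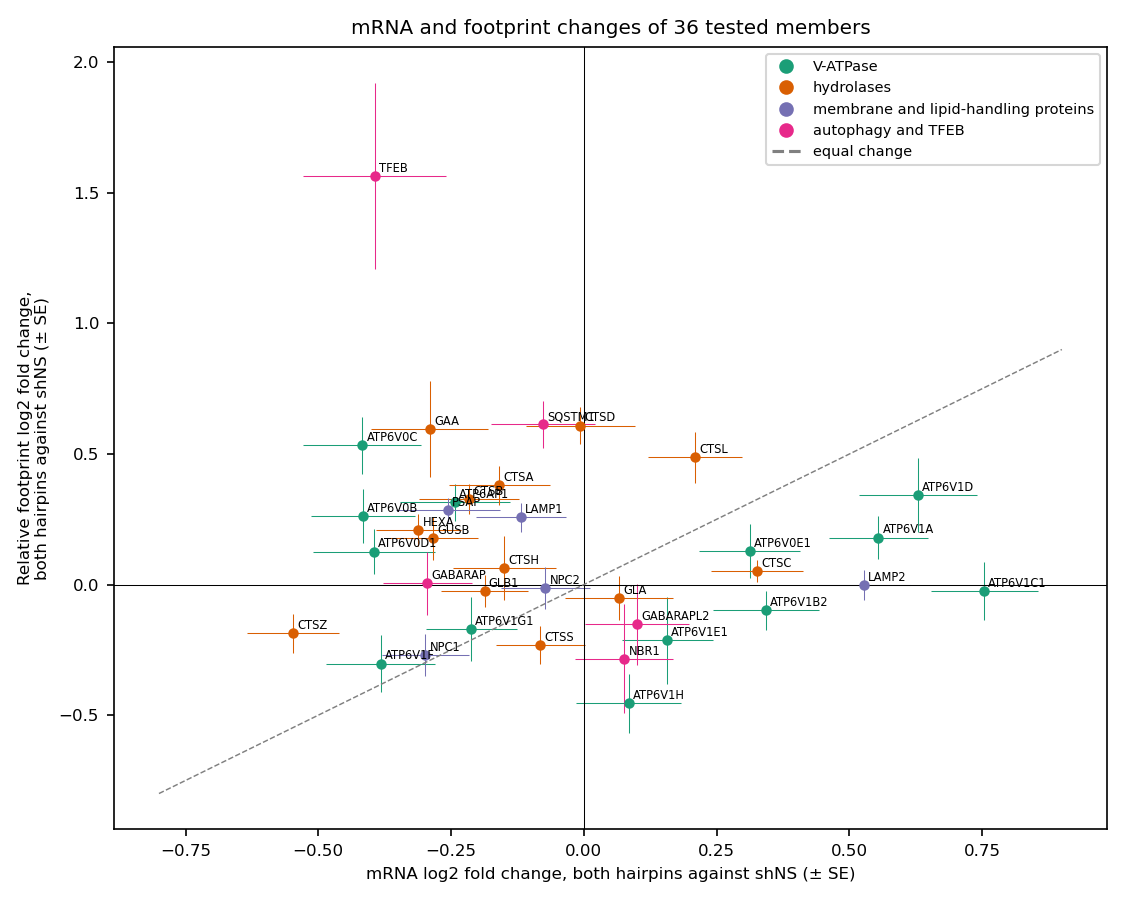
Relative footprint change against mRNA change for the 36 members tested in both assays, each as the log2 fold change of both hairpins against shNS with its SE, coloured by class. Points above the dashed line of equal change have a higher translational efficiency: most hydrolases lie there, while LAMP2, CTSC and the V1 subunits ATP6V1A, ATP6V1B2 and ATP6V1C1 lie below it.

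The 2 hairpins did not act alike on every member. Each hairpin was compared with the same shNS libraries, so the direct difference between hairpins is the test. Against shNS, 14 of 37 member mRNAs were called with shBP2-1 (44.5% of all genes) and 24 with shBP2-2 (57%). In relative footprints 9 of 36 were called with shBP2-1 (7.32%) and 14 with shBP2-2 (13.3%), and in TE 5 (13.8%) and 17 (26.4%). Leaving out 1 library at a time moved these counts to between 5 and 22, 8 and 26, 1 and 13, 9 and 16, 1 and 19, and 10 and 22 in that order, lowest without shNS mRNA replicate 2, shNS mRNA replicate 1, either shBP2-1 footprint replicate, shBP2-2 footprint replicate 1, shBP2-1 footprint replicate 2 or shNS footprint replicate 1, and shBP2-2 footprint replicate 1. The highest values of 22 in mRNA and 19 in TE with shBP2-1 came without shBP2-1 mRNA replicate 1.

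The hairpins were then compared with each other. In mRNA 13 of 37 members differed, 11 higher and 2 lower in shBP2-1 than in shBP2-2, beside 23.3% of all genes (11.5% higher and 11.8% lower). In relative footprints 7 of 36 differed, 4 higher and 3 lower, beside 6.75% (3.64% and 3.12%). In TE 0 of 36 differed, beside 1.01%, with 1 member at an unadjusted p under 0.05 in limma. The mRNA count was 8 without shBP2-2 replicate 2, and the footprint count was 3 and 2 without shBP2-1 replicate 1 and 2.

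CTSZ differed most in mRNA. Its mRNA, given above, was at 96.3% of the shNS mean in shBP2-1 and 48.8% in shBP2-2, a difference of 0.98 ± 0.10 (adjusted p = 1.87e-05). Its footprints were 430.1 and 456 in shNS, against 502 and 510.0 with shBP2-1 and 315 and 285 with shBP2-2, and the hairpins lay on opposite sides of the controls (difference 0.77 ± 0.12, adjusted p = 0.00206). CTSA followed the same order. Its mRNA was 5617 and 5345 in shNS, against 6952 and 5914 with shBP2-1 and 3512 and 4017 with shBP2-2, above the controls in shBP2-1 and below them in shBP2-2 (difference 0.77 ± 0.11, adjusted p = 0.000257), and its footprints differed by 0.71 ± 0.11 (adjusted p = 0.00254). All 4 of these calls held in every alternative.

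CTSS, a cysteine protease of antigen-presenting cells, was at 2504 and 2648 in shNS, against 2828 and 3046 with shBP2-1 and 2031 and 2000.4 with shBP2-2 in mRNA, above the controls in shBP2-1 and below them in shBP2-2 (difference 0.54 ± 0.10, adjusted p = 0.00145). Its footprints were 614 and 684 in shNS, against 682 and 689 with shBP2-1 and 416 and 461 with shBP2-2, near the controls in shBP2-1 and below them in shBP2-2 (difference 0.64 ± 0.12, adjusted p = 0.00620). ATP6V0D1 differed in mRNA (0.66 ± 0.14, adjusted p = 0.00368) and in footprints, which were 242 and 232 in shNS, against 321 and 361 with shBP2-1 and 202 and 192 with shBP2-2, on opposite sides of the controls (difference 0.80 ± 0.13, adjusted p = 0.00337). CTSH, an aminopeptidase, was at 979.8 and 898 in shNS, against 1045 and 954 with shBP2-1 and 677 and 756 with shBP2-2 in mRNA, low in shBP2-2 (difference 0.48 ± 0.11, adjusted p = 0.00785). The footprint differences were lost for CTSS without shBP2-1 replicate 1 (0.077) or 2 (0.065) and for ATP6V0D1 without shBP2-1 replicate 2 (0.083), and the mRNA difference of CTSH without shBP2-2 replicate 1 (0.078).

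NPC1 ran against that order. Its mRNA was 2599 and 2447 in shNS, against 1684 and 1669 with shBP2-1 and 2539.7 and 2475 with shBP2-2, so shBP2-1 lay below the controls and shBP2-2 overlapped them (difference -0.58 ± 0.10, adjusted p = 0.000801). Its footprints were 437 and 409.8 in shNS, against 261 and 268 with shBP2-1 and 472 and 459.9 with shBP2-2, below the controls in shBP2-1 and above them in shBP2-2 (difference -0.81 ± 0.13, adjusted p = 0.00346). ATP6V1G1 footprints were 160.1 and 144 in shNS, against 97.0 and 104 with shBP2-1 and 175 and 181 with shBP2-2, below the controls in shBP2-1 and above them in shBP2-2 (difference -0.81 ± 0.21, adjusted p = 0.0373). The NPC1 footprint difference was lost without shBP2-1 replicate 1 (0.097) or 2 (0.062), and that of ATP6V1G1 without shBP2-1 replicate 1 (0.32) or 2 (0.24) or shBP2-2 replicate 1 (0.058) or 2 (0.082). NPC1 overlaps the gene RMC1 in the annotation. The monocytic markers also differed between hairpins: their summed mRNA, mostly LYZ, was 160130 to 162360 in shBP2-1, 86617 to 87635 in shBP2-2 and 109080 to 111080 in shNS. The part of that shift in the hairpin differences was not tested.

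**Figure D5:**
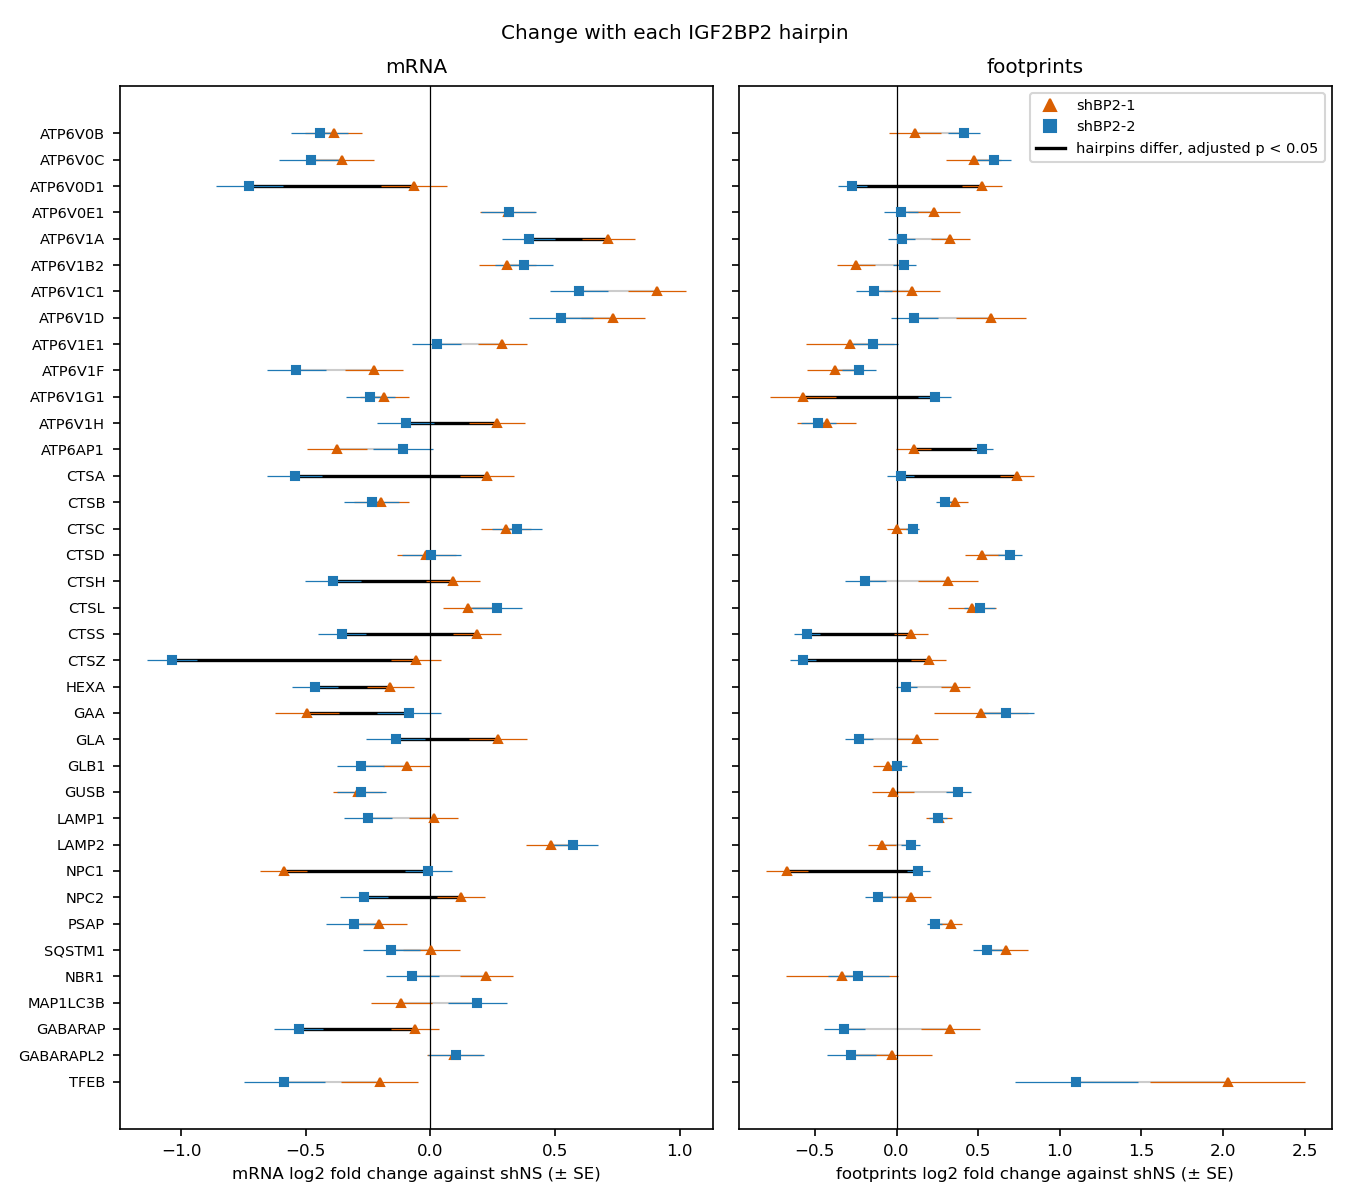
Log2 fold change against shNS with its SE for each hairpin and member, in mRNA (left, 37 members) and relative footprints (right, 36 members). Thick black lines join hairpins that differ at an adjusted p under 0.05, which is widest in mRNA for CTSZ at 0.98.

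Beyond the members, 148 further genes of the lysosome and autophagy were listed, of which 146 were in the table. In mRNA 50 rose and 44 fell of 139 tested, or 67.6% beside the 59% of all genes. By group these were 7 higher and 3 lower of 13 autophagy receptors, 11 and 11 of 35 core autophagy genes, 13 and 11 of 35 hydrolases and cofactors, 9 and 9 of 24 membrane and transport genes, 6 and 4 of 15 regulators around TFEB and 4 and 6 of 17 further V-ATPase genes. The largest rises were ATP6V0D2, a tissue-restricted form of the V0 d subunit (1.57 ± 0.39, adjusted p = 0.00403), GNPTAB, which makes the mannose 6-phosphate tag of hydrolases (0.83 ± 0.12, adjusted p = 0.000248), and LAPTM4A (0.75 ± 0.10, adjusted p = 0.000178). The largest decreases were ROGDI, a subunit of the complex that reassembles the V-ATPase (-0.79 ± 0.11, adjusted p = 0.000251), WDR45, a phosphoinositide-binding autophagy protein (-0.75 ± 0.13, adjusted p = 0.000592), and FLCN, a regulator of TFEB localization (-0.72 ± 0.11, adjusted p = 0.000422). ATP6V0D2 was under a mean of 50 in mRNA, so its change rests on low values. The count of 94 was 50 and 59 when shNS replicate 1 or 2 was left out.

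In relative footprints 6 rose and 2 fell of 120, or 6.67% beside 10.2%. The rises were 4 of 32 hydrolases and cofactors and 2 of 23 membrane and transport proteins, and the decreases were 2 of 11 autophagy receptors. Among the rises was the fucosidase FUCA1 (0.44 ± 0.08, adjusted p = 0.00525). CCPG1, a receptor for autophagy of the endoplasmic reticulum (-0.93 ± 0.14, adjusted p = 0.00166), and CALCOCO2 (NDP52), a receptor for bacteria and mitochondria (-0.74 ± 0.10, adjusted p = 0.000717), fell. The count of 8 was 2 and 3 without shBP2-1 replicate 1 and 2. FUCA1 lost its call without shBP2-1 replicate 1 (0.058).

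In TE 14 rose and 21 fell of 119, or 29.4% beside 32.7%. Among the autophagy receptors 1 rose and 4 fell of 11, and among hydrolases and cofactors 6 rose and 5 fell of 32. The lysosomal enzymes ARSA (1.27 ± 0.41, adjusted p = 0.0260), SMPD1 (1.14 ± 0.28, adjusted p = 0.00791) and NAGLU (1.14 ± 0.33, adjusted p = 0.0171) rose most. STX17, the autophagosomal fusion SNARE (-1.16 ± 0.38, adjusted p = 0.0281), and RB1CC1, a scaffold of the autophagy initiation complex (-1.13 ± 0.32, adjusted p = 0.0144), fell most. ARSA, SMPD1, NAGLU, STX17 and RB1CC1 were all under a mean of 50 in mRNA or footprints, so their changes rest on low values. ARSA lost its call without shBP2-1 footprint replicate 2 (0.053), shNS footprint replicate 2 (0.17) or shNS mRNA replicate 1 (0.055) or 2 (0.052), NAGLU without shNS footprint replicate 1 (0.065) or 2 (0.050), STX17 without shBP2-1 footprint replicate 1 (0.13), shNS footprint replicate 1 (0.081) or 2 (0.073) or shNS mRNA replicate 2 (0.053), and RB1CC1 without shBP2-1 footprint replicate 2 (0.051) or shNS footprint replicate 1 (0.069). The count of 35 was 20 without shNS footprint replicate 2 and 18 without shNS mRNA replicate 1.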

How the data were processed

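The values are a score: read counts per gene that the authors had normalized and rounded to whole numbers in the deposited table; no source used here names the normalization. Tools listed in the submitters' processing notes are FastQC, cutadapt, Bowtie, STAR, RSEM (genome build hg38), without roles. Per the labels' protocols, mRNA libraries were stranded, and footprints were depleted of ribosomal RNA and cloned with a small-RNA kit. The 19951 entries of the 12 libraries were rescaled here within assays, using median-ratio factors (0.979 to 1.017 for mRNA and 0.269 to 2.993 for footprints). Genes with a mean rescaled value of at least 10 entered limma 3.58.1 (R 4.3.3) with voom weights (offset 0.5), two-sided, with Benjamini-Hochberg adjustment over all genes tested. TE was the interaction of assay and hairpin over all 12 libraries. Residual degrees of freedom were 3 within an assay and 6 for TE. Totals of 22685066 to 24854593 (mRNA) and 456338 to 4884067 (footprints) set the precision.

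Per-library values are given for IGF2BP2, TFEB, SQSTM1, MAP1LC3B, LAMP1, CTSD and ATP6V1A, and for up to 4 called members per class, direction and measure with the largest change, up to 6 hairpin differences, and from the wider list up to 3 genes per direction are named. Some genes that this rule names are not reported here. A few further members are shown after their values were seen. The members, the wider list and the tests were chosen with earlier results of these data known. Scripts were tested on simulated data. Alternatives were total scaling, an unweighted trend fit with pseudocounts of 1 and 5, minimum means of 1 and 50, the values as deposited, a replicate block, a fit over all 12 libraries, and each library left out in turn. Chosen after seeing the data were a culture block and the shBP2-1 footprint libraries left out or counted as 1. Gene positions and promoters come from RefSeq GRCh38.p14.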

Additional observations from a re-analysis of the deposited data

Results flagged for a closer look

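Members whose values differed between the hairpins stand out, since both hairpins aim at the same gene. The values are log2 differences, shBP2-1 minus shBP2-2, with SE and adjusted p from limma (2 libraries per group, adjusted over all genes tested). In mRNA the genes not described above as differing were GABARAP (0.47 ± 0.10, adjusted p = 0.00400), GLA (0.41 ± 0.12, adjusted p = 0.0232), NPC2 (0.39 ± 0.10, adjusted p = 0.0107), ATP6V1H (0.37 ± 0.11, adjusted p = 0.0317), ATP6V1A (0.32 ± 0.11, adjusted p = 0.0443) and HEXA (0.30 ± 0.09, adjusted p = 0.0312), all higher in shBP2-1, and GAA, lower in shBP2-1 (-0.41 ± 0.13, adjusted p = 0.0369). The other mRNA differences were 0.98 for CTSZ, 0.77 for CTSA, 0.66 for ATP6V0D1, 0.54 for CTSS, 0.48 for CTSH and -0.58 for NPC1. Without 1 library the calls were lost for GLA without shBP2-1 replicate 2 (0.056) or shBP2-2 replicate 2 (0.14), NPC2 without shBP2-2 replicate 1 (0.077) or 2 (0.052), ATP6V1H without shBP2-1 replicate 2 (0.071), shBP2-2 replicate 2 (0.24) or shNS replicate 1 (0.066) or 2 (0.067), ATP6V1A without shBP2-1 replicate 2 (0.089), shBP2-2 replicate 1 (0.072) or 2 (0.25) or shNS replicate 1 (0.087) or 2 (0.088), HEXA without shBP2-2 replicate 1 (0.22) or 2 (0.13) or shNS replicate 1 (0.091) or 2 (0.093), GAA without shBP2-1 replicate 2 (0.14), shBP2-2 replicate 2 (0.23) or shNS replicate 1 (0.059) or 2 (0.058) and CTSH without shBP2-2 replicate 1 (0.078) (adjusted p in parentheses).

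In relative footprints ATP6AP1 was lower in shBP2-1 (-0.42 ± 0.11, adjusted p = 0.0412), a call lost without shBP2-1 replicate 1 (0.41) or 2 (0.19) or shBP2-2 replicate 1 (0.092) or 2 (0.062). The differences for the genes described above were 0.80 for ATP6V0D1, 0.77 for CTSZ, 0.71 for CTSA, 0.64 for CTSS, -0.81 for NPC1 and -0.81 for ATP6V1G1. The signs for ATP6V0D1, CTSA, CTSS, CTSZ and NPC1 were the same in mRNA and footprints. The groups of 2 libraries are too small for a check of single outlying libraries.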

How the results depend on the processing

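The members' counts moved by over 1.5 times in these settings. The replicate block left 9 of 14 mRNA calls with shBP2-1. Fitting all 12 libraries together left 4 of 12 footprint calls over both hairpins, 3 of 9 with shBP2-1 and 8 of 14 with shBP2-2. The trend fit without weights gave 16 and 17 footprint calls with shBP2-1 (pseudocount 1 and 5), 7 and 7 with shBP2-2, and 13 and 14 in place of 7 between hairpins. The 5 TE calls with shBP2-1 became 3 with total scaling, 15 and 16 in the trend fits, 13 at a minimum mean of 50 and 14 with a culture block (added after the data were seen), and the 0 between hairpins became 1 in both trend fits and at the minimum of 50. The cause was not tested. Leaving out 1 library gave, over both hairpins, shBP2-1, shBP2-2 and the hairpin difference, 6 to 26, 5 to 22, 8 to 26 and 8 to 18 mRNA calls, 4 to 15, 1 to 13, 9 to 16 and 2 to 9 footprint calls, and 11 to 21, 1 to 19, 10 to 22 and 0 to 0 TE calls. A group left with 1 library was assumed to vary like the others.

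The main fits did not treat same-numbered libraries as pairs. Their deviations correlated at 0.11, -0.06 and -0.36 in mRNA and 0.03, 0.08 and 0.03 in footprints. These values cannot settle whether the numbers pair the libraries. With the replicate block the counts in the same order were 17, 9, 17 and 9 in mRNA, 17, 12, 14 and 10 in footprints and 20, 5, 17 and 0 in TE. Total scaling moved the median mRNA change of all genes over both hairpins from -0.010 to -0.088. It moved the split of the members' mRNA calls with shBP2-1 from 8 higher and 6 lower to 5 and 8. Over all genes that split moved from 2865 higher and 2558 lower to 2316 and 3081. No called member changed sign in any alternative run. Depth limits the footprint values, with a total of 456338 in the shallowest library (shBP2-1).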
